A study of Mus musculus with 6 samples.

Results

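The genes described here are 10 components of the contractile apparatus of smooth muscle: *Acta2*, *Actg2*, *Tagln*, *Cnn1*, *Cnn2*, *Myl9*, *Myh11*, *Tpm1*, *Tpm2* and *Cald1*. They were chosen by symbol out of 19937 genes measured, counting genes with a probe set of their own in the platform's annotation, and each of the 10 has 1 such probe set. The arrays are of plasmacytoid dendritic cells (pDCs, the interferon-producing dendritic cells), grown from the total bone marrow of 3 C57BL/6 mice in Flt-3L at 25 ng/ml, a cytokine for dendritic cell development, and sorted as B220+ CD11c+ cells. All 3 mice carried floxed alleles of *Gfi1* and *Gfi1b*, which encode zinc finger repressors, and ERCre, a Cre recombinase that tamoxifen activates (genotype Gfi1f/f; Gfi1bf/f; ERCre). The marrow culture of each mouse was split into an untreated portion (WT) and a portion given 1 µM tamoxifen (KO), and each of the 6 portions was hybridised to 1 Affymetrix Mouse Gene 1.0 ST array. The labels give no age. Per the study's genotyping PCR, the deletion in such cultures was inefficient. The WT cultures also carried ERCre and the floxed alleles, and no culture without ERCre was given tamoxifen, so that loss of *Gfi1* and *Gfi1b*, Cre activation and tamoxifen itself cannot be told apart.

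Smooth muscle cells shorten when myosin slides along actin filaments. Smooth muscle actins form the thin filament, tropomyosins lie along it, caldesmon and the calponins restrain the myosin motor on it, and the motor is switched on when its regulatory light chain is phosphorylated. Much of this set is also made by myofibroblasts and by fibroblasts grown on plastic, whereas the smooth muscle myosin heavy chain is held to be the most restricted member. Serum response factor (SRF) and its cofactors drive many of these genes through a DNA element called the CArG box.

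Of the 10 genes, 8 shared one pattern over the 6 arrays, and *Cnn2* and *Myh11* did not. In the 8, both WT arrays of mice 2 and 3 lay above both KO arrays of the same mice, and those in turn lay above both arrays of mouse 1. Over all 21640 probe sets tested, 7.02% had this order. KO values of the 8 genes lay at 20.4% to 65.4% of the WT values in mice 2 and 3 and at 58.3% to 129% in mouse 1. No member passed an adjusted p of 0.05 in limma, which compared KO with WT over all probe sets, and neither did any other probe set (0% lower). Since each sorted sample is a bulk RNA, fewer cells that carry these transcripts and less of them per cell cannot be told apart.

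CArG boxes were looked for in the promoters, because SRF acts through them. The RefSeq promoter windows of build GRCm38.p6, which run from 250 bases before a gene's start to 50 after it, hold 7 of the 10 members, and *Tagln*, *Actg2* and *Myh11* were not analysed here. The box was read as CC, 6 bases that are each A or T, and GG. This form is its own reverse complement, so both strands were read at once. A looser form allowed 1 G or C among the 6 and was counted apart from the strict one. The strict box was found in *Myl9*, beginning 161 bases before the start, and in *Cnn2*, beginning 56 bases before it, against 1.63% of 32851 windows. The looser form was found in *Acta2*, beginning 84 and again 34 bases before the start, and in *Myl9*, at 99 bases, against 8.5% of windows. No match of either form lay in the windows of *Cnn1*, *Tpm1*, *Tpm2* or *Cald1*, the latter with 2 windows, which says only that these letters are not in these windows. The 3 promoters that hold a match are shown 5′ to 3′ up to the base before the start, with matches of either form in capitals: *Acta2* at chr19:34255374-34255623 on the minus strand, *Myl9* at chr2:156775214-156775463 and *Cnn2* at chr10:79988350-79988599, both on the plus strand.
Acta2: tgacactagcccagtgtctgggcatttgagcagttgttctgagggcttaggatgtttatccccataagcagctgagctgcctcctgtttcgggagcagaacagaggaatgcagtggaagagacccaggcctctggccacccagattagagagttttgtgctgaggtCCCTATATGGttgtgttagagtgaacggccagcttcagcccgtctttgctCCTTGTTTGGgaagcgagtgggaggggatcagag
Myl9: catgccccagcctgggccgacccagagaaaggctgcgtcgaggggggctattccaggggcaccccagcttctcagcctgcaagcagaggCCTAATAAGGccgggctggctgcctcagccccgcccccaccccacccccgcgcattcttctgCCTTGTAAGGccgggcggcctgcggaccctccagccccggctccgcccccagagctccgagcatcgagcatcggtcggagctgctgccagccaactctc
Cnn2: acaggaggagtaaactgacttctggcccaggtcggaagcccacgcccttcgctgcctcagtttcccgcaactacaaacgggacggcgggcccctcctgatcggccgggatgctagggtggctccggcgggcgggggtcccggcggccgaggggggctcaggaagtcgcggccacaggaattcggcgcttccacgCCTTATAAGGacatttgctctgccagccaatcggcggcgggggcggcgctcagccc
*Acta2* and *Myl9* are the members with the lowest mean KO minus WT difference, and *Cnn2* is one of the 2 that stood outside the shared pattern. Of these, *Myl9* and *Cnn2* hold a strict box, while *Acta2* holds only the looser form. Whether the boxes bear on the pattern was not tested.

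The targeted genes check little here, since each has 1 probe set over the whole transcript. In the order of mice 1, 2 and 3, which holds for all triplets of values in the text, the intensity of *Gfi1* was 56.1, 47.8 and 43.3 in WT and 60.5, 67.1 and 61.9 in KO. That of *Gfi1b* was 179, 161 and 155 in WT and 194, 279 and 259 in KO. Both were above WT in every KO culture, but *Gfi1* lay below the background gauge described next on 5 of 6 arrays. Of 14 pDC genes in a fixed list, such as the surface lectin *Siglech* and the transcription factor *Tcf4*, 13 were measured, and all lay above 62.2, the intensity that 95% of 1208 probe sets for odorant and pheromone receptors stayed under, which is called the background gauge here because blood cells should not make these receptors. In a principal component analysis the leading axis, with 70.8% of the variance, had the arrays of mouse 1 at 51.3 and 50.4 and the others between -41.8 and -8.87. Each mouse has a WT and a KO array, so values are given mouse by mouse.

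*Acta2*, the actin of vascular smooth muscle and of myofibroblasts, had intensities of 91.3, 954.5 and 659.8 in WT and of 53.3, 242 and 174 in KO. Mouse 1 was far below the others in both conditions, and the groups overlapped only through its WT array. The WT mean was 568 ± 439 and the KO mean 156 ± 95.5 (SD, n = 3). The log2 difference, KO minus WT, was -0.78, -1.98 and -1.92 in mice 1, 2 and 3, with a mean of -1.56 (standard error 0.99, adjusted p = 0.75 from limma). Unless a block is named, standard errors and adjusted p of single genes are from the comparison of 2 groups, which ignores the pairing by mouse. The spread between mice therefore enters them. With the mouse as a block, the standard error of *Acta2* was 0.24 (adjusted p = 0.26 from limma). *Actg2*, the actin of gut and bladder smooth muscle, had intensities of 55.2, 281 and 234 in WT and 53.2, 103 and 97.5 in KO. In mouse 1 its 2 arrays lay below the background gauge and differed by -0.05 on the log2 scale, against -1.44 and -1.26 in mice 2 and 3, and the mean of -0.92 (standard error 0.64, adjusted p = 0.77) did not pass the test. The coding sequences of these 2 actins are closely alike, so part of the signal of one probe set may come from the other gene.

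Of the motor genes among the 10, only the light chain *Myl9* rose clearly above the background gauge, on the arrays of mice 2 and 3. *Myl9*, the regulatory light chain that is phosphorylated to start contraction, had the largest fold between WT cultures of the 10 genes, with intensities of 55.3, 827 and 479 in WT and 50.0, 168 and 170 in KO. The WT level was 15.0 times as high in mouse 2 as in mouse 1 and 8.67 times in mouse 3, and the KO level was at 20.4% of WT in mouse 2 and 35.6% in mouse 3. Both arrays of mouse 1 lay below the background gauge. The folds over mouse 1 are thus set against a level not told from background, and its WT and KO values say little about tamoxifen. Its mean log2 difference was -1.31 (standard error 1.06, adjusted p = 0.79). *Myh11*, the heavy chain that pairs with this light chain in smooth muscle, had 52.5, 49.8 and 57.2 in WT and 56.6, 60.9 and 65.6 in KO. On 5 of its 6 arrays it lay below the background gauge, so its values carry little information, and mouse 1 did not stand below the others. Its log2 difference was 0.11, 0.29 and 0.20 in mice 1, 2 and 3, with a mean of 0.20 (standard error 0.10, adjusted p = 0.72).

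The 2 tropomyosins, coiled coils along the actin filament, went together. *Tpm1* had intensities of 182, 754 and 612 in WT and 176, 356 and 324 in KO, and stayed above the background gauge on all 6 arrays. *Tpm2* had 99.4, 477 and 414 in WT and 71.5, 175 and 169 in KO. In mice 2 and 3 KO stood at 47.2% and 53.0% of WT for *Tpm1* and at 36.8% and 40.9% for *Tpm2*. In mouse 1 the values were 96.8% and 71.9%. The mean log2 differences were -0.68 (standard error 0.57, adjusted p = 0.80) and -1.07 (standard error 0.67, adjusted p = 0.75), and neither passed the test in the comparison of 2 groups.

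Among the genes that restrain the motor or bundle actin, *Cald1*, caldesmon, had 41.6, 377 and 440 in WT and 53.6, 160 and 121 in KO. It was the one member of the 8 that was higher in the KO than in the WT culture of mouse 1 (0.37 on the log2 scale), at levels below the background gauge, while mice 2 and 3 were at -1.24 and -1.86. *Tagln*, transgelin or SM22, an actin-binding protein, had 80.8, 296 and 310 in WT and 80.4, 131 and 118 in KO, and so was nearly level in mouse 1 and at 44.4% and 38.1% of WT in mice 2 and 3. *Cnn1*, the calponin of smooth muscle, was a dim probe set, with 39.8, 115 and 82.6 in WT and 31.9, 41.2 and 54.0 in KO. It lay below the background gauge on 4 arrays, among them all 3 KO arrays, so its KO values carry little information beyond being low. Its log2 difference was -0.32, -1.48 and -0.61 in mice 1, 2 and 3. *Cnn2*, the calponin of non-muscle and blood cells, had 493, 516 and 407 in WT and 585, 441 and 450 in KO, well above background on every array. Its mean log2 difference was 0.06 (standard error 0.16, adjusted p = 0.95), and its sign was not the same in all mice (0.25, -0.23 and 0.14).

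**Figure D1:**
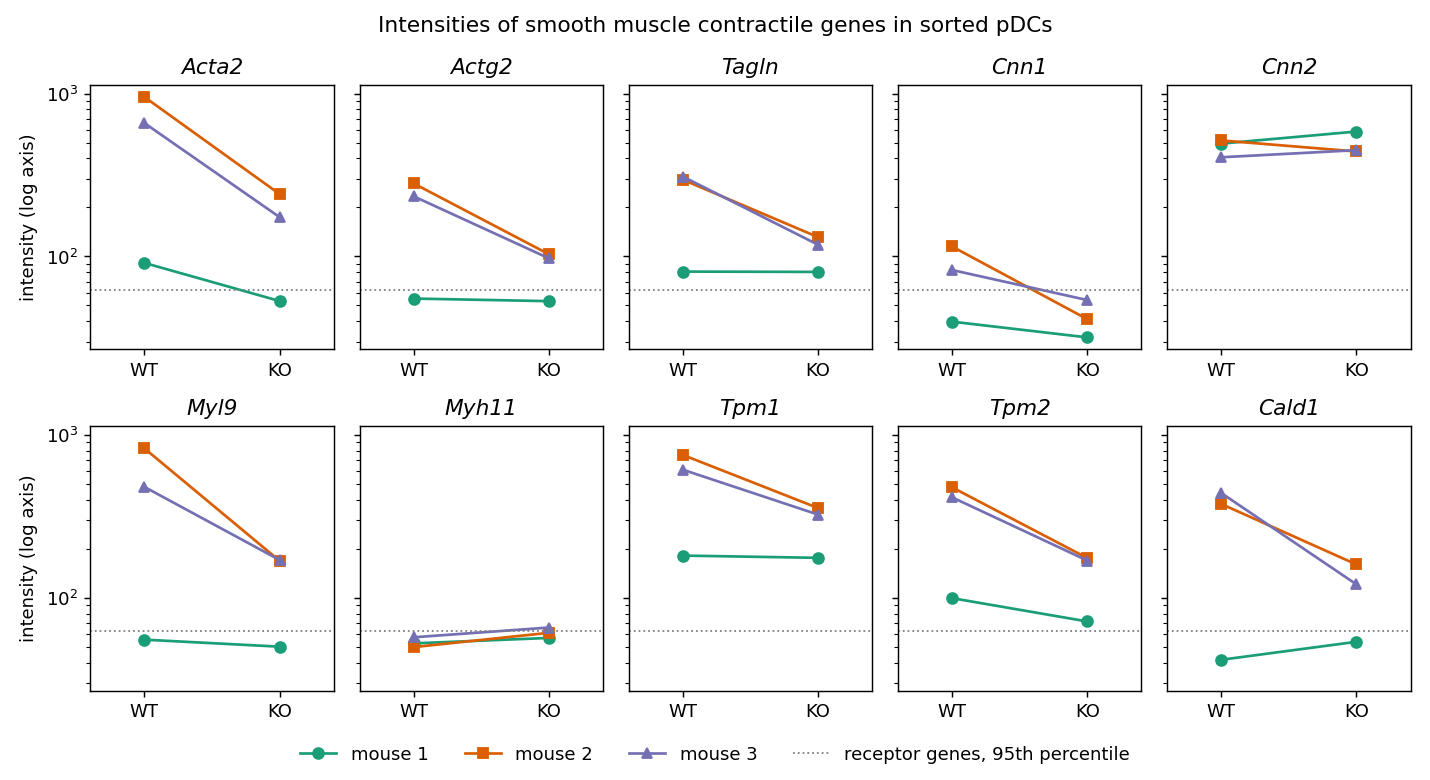
Intensity (log axis) of each of the 10 genes in the WT and KO arrays, with a line for each mouse and a dotted line at the background gauge (62.2). In 8 panels mice 2 and 3 start high in WT and end lower in KO while mouse 1 is low throughout; *Cnn2* (407 to 585) and *Myh11* (49.8 to 65.6) are nearly level.

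As a group, the 10 genes had a median log2 difference of -0.88, against 0.03 over all 21640 probe sets. By mouse it was -0.05, -1.34 and -1.28, where the medians of all probe sets were -7.2e-04, 0.02 and 0.04. Lower KO than WT values in all 3 mice were found for 7 members, all but *Cnn2*, *Myh11* and *Cald1*, against 17.4% of all probe sets. *Myh11* was the 1 member higher in all 3 (21.3% of all probe sets). A mean difference of at least 2-fold was reached by *Acta2*, *Myl9* and *Tpm2* (0.273% of all probe sets). With 1 array left out this count of 3 became 8 (without WT of mouse 1), 0 (without WT of mouse 2 or KO of mouse 1), 1 (without WT of mouse 3), 6 (without KO of mouse 2) or 5 (without KO of mouse 3). Taken mouse by mouse, a difference of at least 2-fold was reached by no member in mouse 1 (0.111% of all probe sets), by 8 in mouse 2 (0.864%) and by 6 in mouse 3 (1.05%), and *Acta2*, *Actg2*, *Tagln*, *Myl9*, *Tpm2* and *Cald1* reached it in both of the latter (0.481%). These 6 belong to the list of genes that the study selected on these same arrays, so their direction is not independent evidence.

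**Figure D2:**
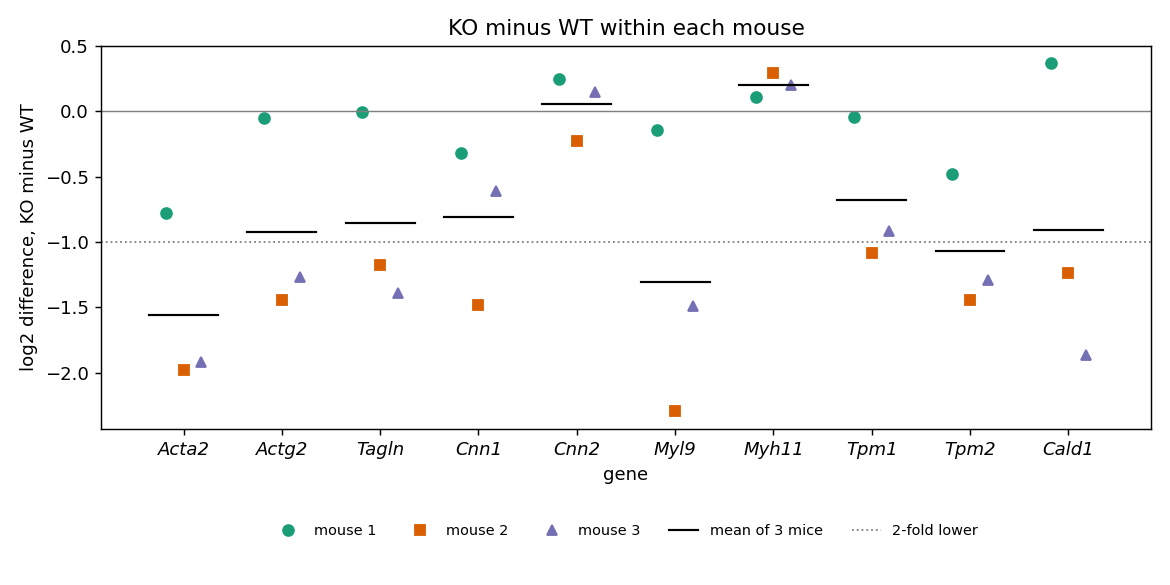
Log2 intensity difference, KO minus WT, of each gene within each mouse (symbols) and the mean of 3 mice (bars), with a dotted line at 2-fold lower. For 8 genes the points of mice 2 and 3 lie between -0.61 and -2.29, all below the point of mouse 1, while the points of *Cnn2* and *Myh11* lie between -0.23 and 0.29.

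No member had an unadjusted p under 0.05 in the comparison of 2 groups, where 1.9% of all probe sets were lower at that threshold. With the mouse as a block, so that each KO array is set against the WT array of its own mouse, *Acta2* (4.1e-04), *Tpm2* (0.0010), *Cnn1*, *Myl9*, *Actg2*, *Tpm1* and *Tagln* (0.014) were lower at an unadjusted p under 0.05 in limma, 7 of 10 against 5.99% of all probe sets, and no member was higher at that threshold, against 7.46% of all probe sets. None passed the adjusted p with the block (smallest 0.26, 0% of all probe sets lower). With both arrays of mouse 1 left out, *Acta2*, *Actg2*, *Tagln*, *Myl9*, *Tpm2* and *Cald1* passed the adjusted p in limma (0.015 to 0.041, against 0.15 to 1 for the same genes under the other single changes of setting), as did 0.49% of all probe sets in the lower direction. Their log2 differences were then -1.95, -1.36, -1.28, -1.89, -1.37 and -1.55. With the block added to the 2 remaining mice, a setting chosen after the data were seen, *Cnn1* and *Tpm1* passed as well (8 members, 0.0016 to 0.045, against 1.81% of all probe sets). The mean difference of the 8 genes therefore rests mainly on mice 2 and 3, and the fits without mouse 1 have only 2 arrays per group. In mouse 1, *Actg2*, *Cnn1*, *Myl9* and *Cald1* lay below the background gauge on both arrays, so a decrease of these genes could hardly be seen there. *Tagln*, *Tpm1* and *Tpm2* lay above the gauge on both arrays of mouse 1. Their log2 differences in that mouse were -0.007, -0.05 and -0.48, so *Tagln* and *Tpm1* were nearly level where a decrease could have been seen. *Acta2*, below the gauge only in KO of mouse 1, was at -0.78.

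How much the cultures differed before any tamoxifen can be read from the WT arrays alone. The WT array of mouse 1 was at least 2-fold below both other WT arrays for 8 members, against 4.47% of all probe sets. *Acta2* was 10.4 and 7.23 times as high in mice 2 and 3 as in mouse 1, and *Cald1* 9.06 and 10.6 times. *Cnn1*, at the other end of the 8, was 2.90 and 2.08 times as high. *Cnn2* was 1.05 and 0.82 times as high and *Myh11* 0.95 and 1.09 times, so both were nearly level among untreated cultures too. All WT values of *Myh11* lay below the background gauge, however, so its levelness carries little information. The WT values of *Actg2*, *Cnn1*, *Myl9* and *Cald1* in mouse 1 lay below that gauge as well. For each of the 8 genes the step between mouse 1 and mouse 2 in WT was larger in size than the KO minus WT difference within mouse 2. On the log2 scale the steps of *Acta2*, *Myl9* and *Cald1* were 3.39, 3.90 and 3.18, against differences of -1.98, -2.29 and -1.24. Step and difference were closest in size for *Cnn1* (1.53 against -1.48). Over the 6 arrays, Pearson's r between any pair of the 8 genes lay between 0.87 and 1.00 (28 pairs, median 0.98), while *Cnn2* had -0.55 to -0.33 and *Myh11* -0.37 to -0.08 with the 8. The 8 were set apart by their order on these same arrays, so high r among them and lower r with *Cnn2* and *Myh11* are largely built in. The values of r are descriptions over arrays of only 3 mice.

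Relatives of the 10 genes were followed in a list of 16 other actins, transgelins, calponins, tropomyosins and myosin chains, most of them of the general cytoskeleton and some, such as *Acta1* and *Actc1*, of other muscle. Of these 15 were measured, none reached 2-fold or an unadjusted p under 0.05 in the comparison of 2 groups, and the median log2 difference was -0.06. *Actb*, beta-actin, had 10040, 10590 and 10480 in WT and 9917, 10140 and 9713 in KO. *Cnn3*, the calponin of neurons and many other cells, had 93.1, 192 and 182 in WT and 89.2, 109 and 115 in KO, a mean log2 difference of -0.52. *Myh9*, the non-muscle myosin heavy chain of blood cells, was at -0.36. These 2 were the members of this list lower with the mouse as a block at an unadjusted p under 0.05. *Tagln3* (0.24), a transgelin of neurons that lay below the background gauge on 5 arrays, and *Myl12b* (0.16), a non-muscle regulatory light chain, passed in neither fit. *Tpm4*, a tropomyosin of non-muscle cells, had 904, 1921 and 2017 in WT and 934, 1500 and 1268 in KO, log2 differences of 0.05, -0.36 and -0.67. The mean centred profile of this list over the 6 arrays had a Pearson's r of 0.96 with that of the members, at a much narrower range (-0.12 to 0.10 against -1.01 to 1.16 on the log2 scale). Of the lists described below, that of *Srf* had an r of 0.96, anchoring genes 0.99, fibroblast markers 0.97 and neutrophil markers 0.96, while pDC markers had -0.94. A high r thus does not set the relatives apart.

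Genes that control contraction showed no shared shift. Of 14 in the list 12 were measured, with a median log2 difference of -0.06, none lower and 1 higher at an unadjusted p under 0.05, against 5.14% of all probe sets higher at that p. That gene is *Mrvi1*, a substrate of the cGMP-dependent kinase, at 0.36 (standard error 0.14, adjusted p = 0.70). *Ppp1r12a*, the targeting subunit of myosin phosphatase, was at -0.25, *Ppp1cb*, its catalytic subunit, at -0.14, and *Gucy1a1*, a subunit of the nitric oxide receptor, at 0.19. *Prkg1*, *Cacna1c* and *Kcnmb1*, a kinase and 2 channel subunits of smooth muscle, were below the background gauge on all 6 arrays. *Mylk*, which phosphorylates the product of *Myl9*, had 52.8, 122.9 and 110.2 in WT and 63.8, 74.4 and 59.1 in KO, a log2 difference of 0.27, -0.72 and -0.90 in mice 1, 2 and 3.

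Genes that anchor the filaments to the membrane and matrix, or accompany them, formed the next list. Of 16 in the list 15 were measured, and their median log2 difference was -0.36 (-0.06, -0.45 and -0.55 in mice 1, 2 and 3). None passed in the comparison of 2 groups, 1 (*Fermt2*) was lower by at least 2-fold (0.273% of all probe sets), and 6 were lower with the mouse as a block at an unadjusted p under 0.05 (5.99%). For 7 of the 15 the WT array of mouse 1 lay at least 2-fold under both other WT arrays (4.47%). *Fermt2*, kindlin 2 of focal adhesions, had 64.0, 203 and 217 in WT and 50.1, 84.7 and 82.4 in KO. *Parva*, parvin, had a mean log2 difference of -0.95, *Vcl*, vinculin, one of -0.51 and *Smtn*, smoothelin, one of -0.36. *Cav1*, *Parva* and *Fermt2* are in the study's own list. *Synpo2*, *Des*, *Pdlim3* and *Itga8*, genes of differentiated muscle cells, lay below the background gauge on all 6 arrays, and *Lmod1*, leiomodin, lay between 60.6 and 68.4. *Srf* itself had 302, 276 and 257 in WT and 293, 270 and 253 in KO, and its cofactor *Mrtfa* was at 0.08. *Mrtfb*, a cofactor of the same family, had 144, 251 and 327 in WT and 186, 217 and 233 in KO, log2 differences of 0.37, -0.21 and -0.49. *Myocd*, the cofactor held to be specific to heart and smooth muscle, was at 14.9 to 21.4, below the background gauge on every array. In the list of 8 that holds *Srf*, its cofactors and other regulators, the median log2 difference was 0.01, none passed in the comparison of 2 groups, and *Prrx1*, a homeodomain factor of mesenchyme and in the study's list, was the 1 lower with the block, with 35.2, 327 and 274 in WT and 26.0, 115 and 102 in KO. *Tead1*, a factor of the Hippo pathway, was at -0.31.

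The summed markers of fibroblasts and stromal cells were lowest in mouse 1 in both conditions. All 12 in the list were measured, and their summed intensity was 604, 4455 and 3926 in WT and 677, 2201 and 2254 in KO. The summed intensity of all 10 smooth muscle genes was 1191, 4647 and 3695 in WT and 1212, 1880 and 1744 in KO. Both sums were lowest in mouse 1, where KO was above WT, and lower in KO than in WT in mice 2 and 3. In mouse 1 *Cnn2* gave 493 (WT) and 585 (KO) of the sum over the 10 genes. The 8 genes with the shared pattern summed to 645, 4081 and 3231 in WT and 570, 1377 and 1229 in KO. The order of this last sum follows from how the 8 were picked, apart from the lower KO value in mouse 1. For 10 of the 12 the WT array of mouse 1 lay at least 2-fold under the other WT arrays (4.47% of all probe sets), 7 were lower with the mouse as a block at an unadjusted p under 0.05 (5.99%), and the median KO minus WT difference was 0.13, -1.05 and -0.70 in mice 1, 2 and 3. *Postn*, periostin of activated fibroblasts, had a mean log2 difference of -1.41, *Col3a1* and *Col1a1*, fibrillar collagens, -0.88 and -0.77, and *Pdgfrb*, a receptor of mesenchymal cells, -0.60. *Col1a1*, *Col1a2*, *Col3a1* and *Postn* are in the study's list. *Lum* and *Lepr* lay below the background gauge on all 6 arrays, and the mean differences of *Vcam1*, *Thy1* and *Dcn*, whose WT arrays of mouse 1 were also low, were 0.02, 0.19 and -0.22. The part of such cells in the values of the smooth muscle genes was not tested.

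Other cell types were followed by fixed lists as well. Pericyte markers, with 6 of 6 measured and *Rgs5*, *Cspg4* and *Abcc9* below the gauge, had sums of 371 to 388 in WT and 369 to 402 in KO. Skeletal muscle markers, with 8 of 8 measured and *Myh1*, *Myh4*, *Myog* and *Ttn* below it, had 406 to 487 in WT and 457 to 529 in KO. In neither list was mouse 1 low. Endothelial markers, with 7 of 7 measured and *Tek*, *Emcn* and *Tie1* below the gauge, had 834 to 1462 in WT and 992 to 1567 in KO, highest in mouse 1. *Pecam1* made up the largest part of that sum, with 870, 403 and 356 in WT and 776, 444 and 419 in KO. *Cdh5* and *Kdr* were also highest in mouse 1 in both conditions, while *Egfl7* was lowest there in WT (86.7, 109 and 108). Megakaryocyte and platelet markers, 5 of 8 measured, had 1122, 3540 and 6722 in WT and 699, 2196 and 4100 in KO. *Pf4*, a platelet chemokine, made up most of that sum, with a log2 difference of -0.92, -1.10 and -0.94. The median of the 5 was 0.12, and *Itga2b*, *Treml1* and *Gp9*, a platelet integrin chain and 2 other platelet surface proteins, were above WT in mice 2 and 3 (0.21 to 0.92) and below it in mouse 1 (-0.23 to -0.09). Macrophage markers, 8 of 8, had 4642, 16720 and 16770 in WT and 4070, 12930 and 14510 in KO. Neutrophil markers, 8 of 8, had 1299, 8280 and 9494 in WT and 490, 2312 and 4197 in KO. The WT array of mouse 1 lay at least 2-fold under both other WT arrays for 6 macrophage and 7 neutrophil markers (4.47% of all probe sets). With the mouse as a block, 5 and 6 of them were lower at an unadjusted p under 0.05 in limma (5.99%). Median log2 differences of the 2 lists were -0.33 and -1.46, and 1 macrophage and 6 neutrophil markers are in the study's list. The pDC markers had 49050, 25820 and 20630 in WT and 46350, 33490 and 30290 in KO, highest in mouse 1 and higher in KO than in WT in mice 2 and 3 but not in mouse 1. What part each of these lists has in the values of the smooth muscle genes was not tested.

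**Figure D3:**
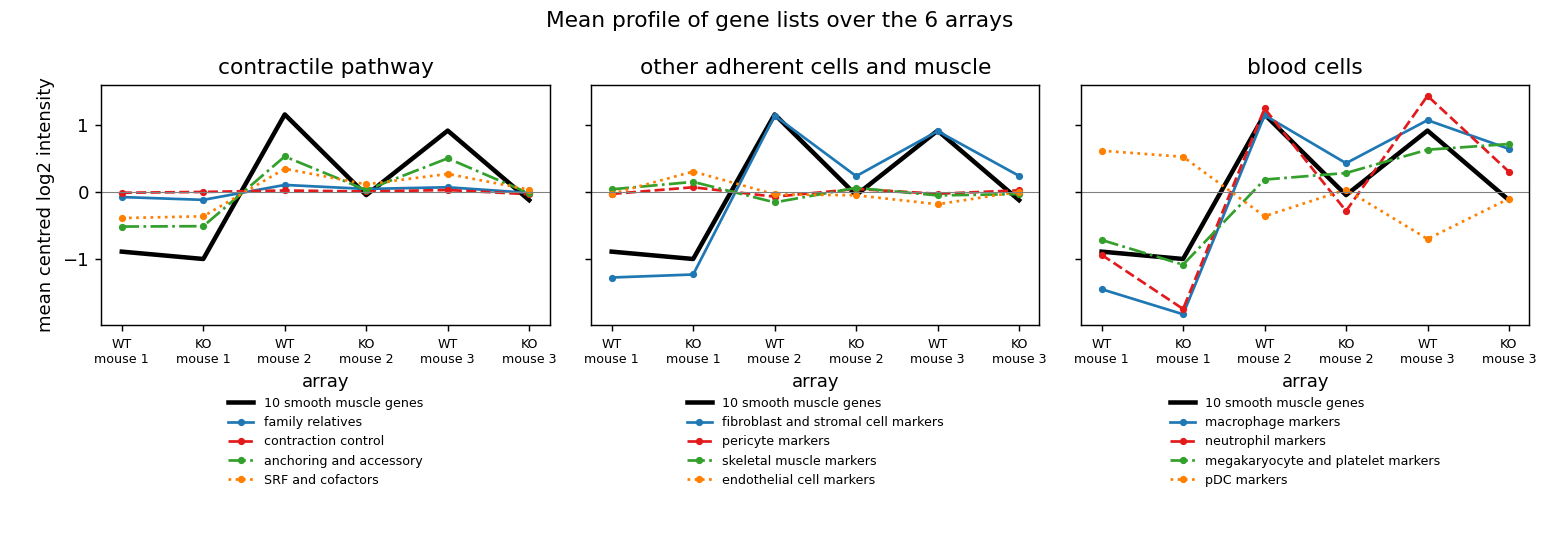
Mean log2 intensity of each gene list on each of the 6 arrays after each gene was centred on its own mean, with the 10 smooth muscle genes in black in all 3 panels. The black line (-0.89 in WT of mouse 1) and the lines of anchoring genes (-0.52) and of fibroblast (-1.28), macrophage (-1.46) and neutrophil markers (-0.94) are lowest on both arrays of mouse 1 and highest on the WT arrays of mice 2 and 3, whereas the lines of pericyte and skeletal muscle markers stay between -0.16 and 0.15.

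Of the genes outside the list, the 10 most like the mean profile of the members by Pearson's r over the 6 arrays, among 2001 probe sets with a mean intensity above the background gauge and a range of at least 2-fold, were *Gpx3*, *Ccn1*, *Crip2*, *Ddah1*, *Dnajb4*, *Fat3*, *Bcat1*, *Cttn*, *Olfml3* and *Col6a3*, with r of 0.99 to 1.00. *Ccn1*, a matricellular protein, had 69.4, 738 and 596 in WT and 65.1, 210 and 163 in KO. *Ddah1*, an enzyme that clears an inhibitor of nitric oxide synthesis, had 38.7, 332 and 302 in WT and 30.2, 91.6 and 97.6 in KO. *Crip2*, a LIM domain protein of smooth muscle, had only 60.8, 123.2 and 119.3 in WT and 60.4, 86.5 and 82.0 in KO. All of these rank the arrays of mouse 1 lowest. With 6 arrays from 3 mice, r was at least 0.95 for 217 of the 2001 probe sets, so a high r sets few genes apart.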

How the data were processed

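RNA from sorted B220+ CD11c+ pDCs (200 ng of total RNA per sample, per the labels) was measured on 6 arrays, 3 WT and 3 KO. For 34760 probe sets the authors deposited linear intensities, with medians of 69.0 to 72.9 on the 6 arrays. The methods of background correction, normalization and summary are not given in the sources used here. Arrays give no read depth, and 3 per group limit the precision. The log2 of the deposited intensity was analysed with no normalization added. The platform table gives exactly 1 symbol for 21640 probe sets, several for 1321 and none for 11799. For each gene of a list with several probe sets, the one with the highest mean was taken. KO and WT were compared over all 21640 by limma (version 3.58.1, R version 4.3.3; lmFit, then eBayes), and two-sided p-values were adjusted by the Benjamini-Hochberg method, with 0.05 as the threshold; the fit had been tested on simulated data. Titles give each mouse a WT and a KO array and so pair them. With group means removed, arrays of mice 1, 2 and 3 correlated with the other array of the same mouse at 0.81, 0.51 and 0.67, against at most -0.54, 0.50 and 0.42 between a WT array and the KO array of another mouse. The mouse was a block in an alternative fit. Other alternatives were a quantile normalization, median centring, a floor at the 20th percentile, dim probe sets left out, weights for arrays, the average of a gene's probe sets, trended and robust eBayes, and each array or mouse left out. The members, the 4 pathway lists, the 8 marker lists and the tests were chosen with earlier results of these data known. Genes were to be named if they were members, were among the 4 of a list with the smallest p, or were among the 10 most like the members. For pericyte, endothelial, skeletal muscle, macrophage, neutrophil and pDC markers, some or all of these 4 were left out. *Actb*, *Mylk*, *Lmod1*, *Srf*, *Cav1*, *Pf4* and others outside this rule were named after their values were seen.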

Additional observations from a re-analysis of the deposited data

How the results depend on the processing

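Among single changes of setting, only the loss of both arrays of mouse 1 took any member past the adjusted p (6 members). The median of the 10 genes was negative throughout, at -1.58 to -0.48 with an array or mouse left out, lowest without the WT array of mouse 1 and highest without that of mouse 2. The count at least 2-fold lower, 3 as reported, ran from 0 (WT of mouse 2 or KO of mouse 1 left out) to 8 (WT of mouse 1, or that whole mouse, left out). It was 1 when WT of mouse 3 or all of mouse 2 was dropped, 6 and 5 when KO of mouse 2 and of mouse 3 were dropped, and 8 with array weights, which gave the WT array of mouse 1 the least weight (0.32) and that of mouse 2 the most (3.53). The count lower at an unadjusted p under 0.05, 0 as reported, was 7 with the mouse as a replicate block, 8 with array weights and 0 to 8 with an array or mouse left out, the 8 with WT of mouse 1, or that whole mouse, left out. The count past the adjusted p ran from 0 to 6 in the same settings. With the block and a mouse left out, an alternative added after the data were seen, these counts were 8, 8 and 8 without mouse 1, while without mouse 2 or 3 they were 1 or 2 at least 2-fold lower, 4 at the unadjusted p and 0 at the adjusted p. The mean of *Cnn2*, positive as reported, was -0.075 with array weights, -0.049 with WT of mouse 3 left out, -0.076 with KO of mouse 1 left out and -0.040 with mouse 1 left out, with or without the block. Over all such omissions it ran from -0.076 to 0.196 (mouse 2 left out). No other member changed direction under any alternative. With dim probe sets left out, *Cnn1* and *Myh11* dropped out and 8 members remained. Quantile normalization, centring, the floor, averaged probe sets and the trended and robust fit left the counts of members at least 2-fold lower and past either p as reported. The causes of these changes were not tested.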
